A study of Rattus norvegicus with 6 samples.

Results

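The genes described here are 3 neurotrophins, Bdnf, Ntf3 and Ntf4, and 4 of their receptors, Ngfr, Ntrk2, Ntrk3 and Sort1. They are the rows of the count table whose symbol equals one of these 7 names. Each name had 1 row, so they make up 7 of 23091 genes in the table, and 6 of the 7 passed the filter on low counts that left 13999 genes for testing. The table gives their identifiers as ENSRNOG00000047466 (Bdnf), ENSRNOG00000019716 (Ntf3), ENSRNOG00000020783 (Ntf4), ENSRNOG00000005392 (Ngfr), ENSRNOG00000018839 (Ntrk2), ENSRNOG00000018674 (Ntrk3) and ENSRNOG00000031814 (Sort1). RNA was sequenced from sciatic nerve that regenerated across a surgical defect in male SD rats of wild-type genotype. In the NC group (3 libraries, NC 1 to NC 3) the defect got no treatment and the wound was closed. In the GDNF-Gel/HA-Mg group a conduit of that material, which carries glial cell line-derived neurotrophic factor, was placed in the defect (3 libraries, named implant 1, implant 2 and implant 3 below). The age of the rats and the time after surgery are not in the labels. No library here has the conduit alone, so the growth factor and the material cannot be told apart.

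Neurotrophins are secreted as longer precursors and cut to mature growth factors that keep neurons alive and steer their axons. Each mature factor prefers 1 receptor tyrosine kinase: brain-derived neurotrophic factor (Bdnf) and neurotrophin-4 (Ntf4) bind TrkB, made from Ntrk2, and neurotrophin-3 (Ntf3) binds TrkC, made from Ntrk3. All of them also bind the neurotrophin receptor made from Ngfr, and the precursors bind it together with sortilin (Sort1). In peripheral nerve the axons carry the kinases made in distant cell bodies, while Schwann cells that have lost their axon are known for making Bdnf and for high Ngfr. Ntrk2 and Ntrk3 also give forms without the kinase, and counts per gene do not separate these from the full receptors. RefSeq lists 14 transcripts of Ntrk2 and 8 of Ntrk3.

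The libraries held 15897850 to 18491379 counts. Levels are given as CPM, counts relative to the library size after scaling for composition with the TMM method. All 7 Schwann lineage markers on the marker list had counts in every library. The 5 markers of neuronal cell bodies summed to 3.41 to 5.62 CPM. Most of that sum was Prph, at 2.46 to 3.92 CPM. Prph and Rbfox3 had counts in every library, while Syt1 was at 0 in NC 3 and implant 2, Isl1 in NC 3 and Snap25 in implant 3. Haemoglobin transcripts took 1.02% to 25.2% of the counts, with the highest share in NC 3. Skeletal muscle markers (5 of 6 in the table) summed to 25.1 CPM in NC 1 and up to 7238 in implant 3, and 6 adipocyte markers to 1552 CPM in NC 2 and up to 10860 in NC 3. NC 3 also stood apart in Sox10, a transcription factor that Schwann cells keep at every stage, at 21.8 CPM against 122 to 243 in the other 5 libraries. In bulk tissue, fewer cells of a type and less RNA per cell cannot be told apart. Whether each library is a different animal is not in the labels, and the p-values therefore reflect only how these samples scatter, which may be technical.

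No neurotrophin or receptor transcript was called different between the groups in the test over all genes. With Benjamini-Hochberg adjusted p-values, edgeR's quasi-likelihood test called 0 of the 6 that passed the filter, where it called 0 of 13999 genes, or 0%. At an unadjusted p under 0.05 it found 1 of the 6, Ntf3, and 241 genes, or 1.72%, among all tested. DESeq2 called 11 genes over all, none of them among the 6, and limma-voom called 0. The NC and implant levels did not overlap for 1 of the 7 genes, again Ntf3. That held for 796 genes, or 5.69%, of all tested. Of the 7 genes, Bdnf and Ngfr varied most over the 6 libraries. For both, the libraries differed far more inside each group than the group means did.

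**Figure D1:**
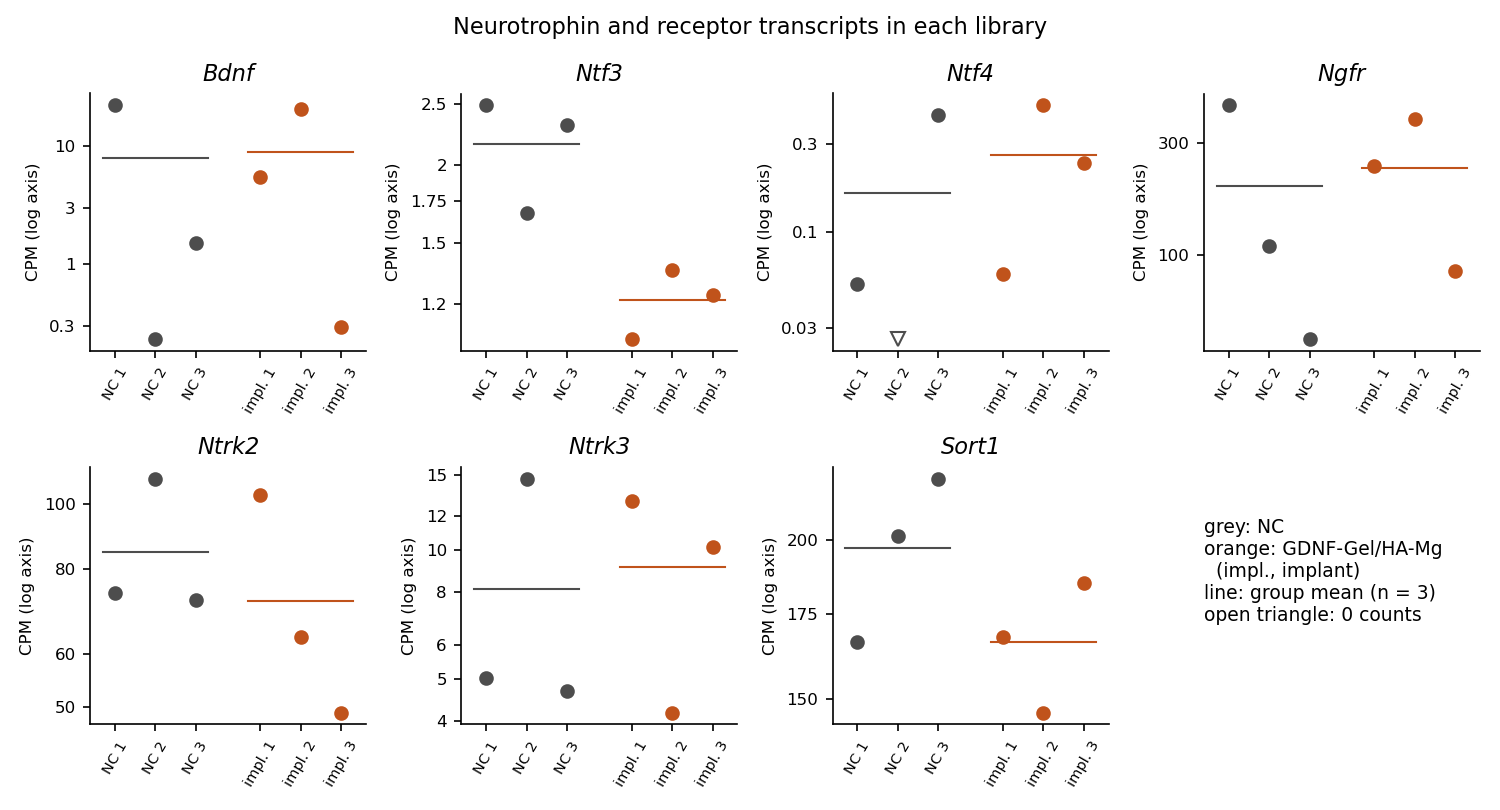
Level of each gene in each library in CPM on a log axis; points are libraries, grey for NC and orange for implant, lines are group means (n = 3), and an open triangle marks 0 counts. Bdnf and Ngfr are highest in NC 1 and implant 2, and Ntf3 is the gene whose groups do not overlap.

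Among the ligands, Bdnf had by far the widest spread. NC 1 had 22.4 CPM of Bdnf, NC 2 had 0.231 and NC 3 had 1.52, from 431, 4 and 21 counts. Implant 1 had 5.50 CPM, implant 2 had 21.0 and implant 3 had 0.295, from 94, 386 and 5 counts. Values of other genes below are in the same order, replicates 1, 2 and 3 of each group. Each group thus held 1 library with high Bdnf (NC 1 and implant 2) and 1 with almost none (NC 2 and implant 3), and the groups overlapped over nearly the whole range. The pairs of like libraries lay across the groups: the 95% counting intervals of NC 1 (20.3 to 24.6 CPM) and implant 2 (18.9 to 23.2) overlapped, as did those of NC 2 (0.0630 to 0.592) and implant 3 (0.0957 to 0.688). These intervals are exact Poisson limits and cover counting error only.

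The highest Bdnf level was 96.8 times the lowest. On the log2(CPM + 0.5) scale its range over the 6 libraries was 4.97, where the median gene had 0.71 and 1.04% of tested genes had a wider range. The group mean level was 8.04 ± 12.4 CPM for NC (mean ± SD, n = 3) and 8.92 ± 10.8 for the implant group (n = 3). The log2 fold change, implant over NC, was 0.14 ± 1.71 (SE), with an approximate 95% interval from -4.03 to 4.32 (edgeR adjusted p 1). That interval spans 0.0613-fold to 19.9-fold, so neither a large gain nor a large loss could be told from no change. The sign rested on single libraries: the log2 fold change was -0.43 without NC 2, -0.36 without NC 3 and -1.49 without implant 2, and 3.39 without NC 1.

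By a rule of likeness, the genes that followed Bdnf most closely over the 6 libraries were Sema3e, a secreted semaphorin, and Ptprt, a receptor tyrosine phosphatase. Likeness was the root mean square difference between 2 genes after centring each on its mean log2(CPM + 0.5). It was 0.13 for Sema3e and 0.19 for Ptprt, where Bdnf itself lay 2.04 from its own mean, among 11454 candidate genes. Sema3e measured 122, 4.05 and 8.96 CPM across the NC libraries and 31.1, 112 and 3.42 across the implant libraries. Ptprt measured 24.8, 0.231 and 2.39 CPM across the NC libraries and 6.09, 23.4 and 0.236 across the implant libraries. Both were thus highest in NC 1 and implant 2 and lowest in NC 2 and implant 3, as Bdnf was. In NC 2 and implant 3, Bdnf and Ptprt lay below the 0.5 CPM added before the log. This narrows the range of Bdnf on that scale, so the likeness values depend in part on the added 0.5.

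Bdnf is transcribed from several start sites, each followed by its own first exon, and the count table sums them. RefSeq (build GRCr8) lists 11 Bdnf transcripts, and its promoter table has 6 Bdnf entries. It also has 3 entries for Ntf3, 1 for Ntf4 and 1 for Sort1, so 4 of the 7 genes matched. The 250 bases before each start were searched on both strands for TGACTCA, the AP-1 site of the Jun and Fos families (TGAGTCA on the opposite strand), and for TGACG, the core of the site bound by CREB. TGACTCA was in none of the 11 windows of these 4 genes. TGACG was in 1 of the 6 Bdnf windows and in none of the other 5. Some Bdnf windows overlap each other, as do some Ntf3 windows, so the 11 are not independent. Over 33360 distinct windows of the same length, TGACTCA was in 4.05% and TGACG in 18.2%. Shown are the Bdnf window with a match, 5′ to 3′ along the gene with the motif in capitals (read on the opposite strand), and beneath it 1 window of Ntf3, the gene whose groups did not overlap.
Bdnf, chr3:116637608-116637857 (+ strand): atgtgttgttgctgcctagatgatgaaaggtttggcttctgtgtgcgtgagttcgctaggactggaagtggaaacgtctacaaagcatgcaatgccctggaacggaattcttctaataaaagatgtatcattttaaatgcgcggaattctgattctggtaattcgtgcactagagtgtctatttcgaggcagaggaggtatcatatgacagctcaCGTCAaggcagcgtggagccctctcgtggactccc
Ntf3, chr4:160670623-160670872 (- strand): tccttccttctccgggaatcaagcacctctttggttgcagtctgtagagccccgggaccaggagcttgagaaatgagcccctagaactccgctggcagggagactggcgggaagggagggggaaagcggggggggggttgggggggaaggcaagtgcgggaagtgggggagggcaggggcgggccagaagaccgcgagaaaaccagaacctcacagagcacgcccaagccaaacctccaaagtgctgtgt
A match describes the letters only and does not show that a factor binds there.

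Jun, itself a member of the AP-1 family and a driver of Schwann cell repair, measured 388, 179 and 216 CPM across the NC libraries and 233, 366 and 153 across the implant libraries. Its 3 highest libraries were NC 1, implant 2 and implant 1, the same as for Bdnf, but its whole range was much narrower. The 7 markers of repair Schwann cells on the marker list, Jun among them, all had counts in every library and summed to 233 to 515 CPM in NC and 180.3 to 469 with the implant. The 7 myelin markers, also with counts in every library, summed to 555 to 17000 CPM in NC and to 579 to 8257 with the implant. Jun makes up most of the repair sum, and Shh on the same list had another order, with 22.5 CPM in NC 2 and 26.2 in implant 1 but 0.623 in NC 1 and 0.380 in implant 2. The repair sum was highest in NC 1 and implant 2, where Bdnf was high and the myelin sum lowest. The sum of 6 fibroblast markers was also highest in NC 1 (21780 CPM) and implant 2 (20930), over a narrower range. Of these markers, Col3a1 was highest in NC 3 and Dcn in NC 2. NC 1 and implant 2 were the highest libraries for 1378 genes, or 9.84%, of all tested. The parts of Schwann cell state and of other cell types in the Bdnf levels were not tested.

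Ntf3 was the only one of the 7 whose libraries separated by group. Its 48, 29 and 32 counts in the NC libraries made 2.49, 1.68 and 2.31 CPM. Its 18, 25 and 21 counts in the implant libraries made 1.05, 1.36 and 1.24 CPM. All 3 implant libraries lay below all 3 NC libraries, but on so few counts that the 95% counting intervals overlapped for every pair of an NC and an implant library except NC 1 (1.84 to 3.304 CPM) and implant 1 (0.625 to 1.67 CPM). NC lay wholly above the implant group in 403 genes, or 2.88%, of all tested.

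The Ntf3 mean level was 2.16 ± 0.43 CPM for NC (n = 3) and 1.22 ± 0.15 for the implant group (n = 3). The log2 fold change was -0.82 ± 0.33 (SE), with an interval from -1.62 to -0.03 (edgeR unadjusted p 0.0445, adjusted p 1). In edgeR's order by unadjusted p, 204 genes came before it. Leaving out each library in turn kept the log2 fold change between -0.98 and -0.69, with an edgeR unadjusted p between 0.0450 and 0.151. With all 6 libraries, the unadjusted p was 0.0563 in limma-voom and 0.0416 in DESeq2. In edgeR it was 0.0609 without the filter and 0.137 with the replicate number as a block. Under other scalings, without haemoglobin genes and with a stricter filter, the edgeR unadjusted p ran from 0.0403 to 0.0499. Because Ntf3 was already known from these data to be lower in the implant group, its place here adds no independent evidence. The genes most like it were Arsb, a lysosomal sulfatase, and 1500009L16Rik, each at a likeness of 0.11, where Ntf3 lay 0.35 from its own mean. Arsb measured 126, 101 and 130.3 CPM across the NC libraries and 82.9, 81.3 and 76.9 across the implant libraries. Arsb too had all 3 implant libraries below NC. It was picked for following Ntf3 over these same libraries, so this is no separate evidence.

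Ntf4 was close to absent. The NC libraries held 1, 0 and 6 counts and the implant libraries 1, 9 and 4, and the gene did not pass the filter. The level was at most 0.489 CPM, in implant 2, and the limit of 3 counts taken for a count of 0 is 0.173 CPM in NC 2. Fitted without the filter, its log2 fold change was 0.76 ± 1.35 (SE), with an interval from -2.48 to 4.0 (edgeR unadjusted p 0.594). A difference between the groups was not detectable at this depth.

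Of the receptors, Ngfr, which binds every neurotrophin and marks denervated Schwann cells, varied most. It measured 434, 109 and 43.7 CPM across the NC libraries and 239.9, 379.8 and 84.8 across the implant libraries. Its 3 highest libraries were NC 1, implant 2 and implant 1, in the order of Bdnf, while its lowest was NC 3 and that of Bdnf was NC 2. The range of 3.297 on the log2(CPM + 0.5) scale was exceeded by 3.34% of tested genes. The mean level was 196 ± 209 CPM for NC (n = 3) and 235 ± 148 for the implant group (n = 3), and the log2 fold change was 0.26 ± 0.91 (SE), from -1.96 to 2.49 (edgeR adjusted p 1). It was -0.03 without NC 2, -0.22 without NC 3 and -0.28 without implant 2, and 1.64 without NC 1.

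Sox2 and Tenm3 were the genes most like Ngfr, at 0.18 and 0.20, where Ngfr lay 1.19 from its own mean. Sox2, a transcription factor of immature and repair Schwann cells, measured 57.7, 15.5 and 4.92 CPM across the NC libraries and 24.8, 46.1 and 12.6 across the implant libraries. The order of the 6 libraries was the same for Sox2 as for Ngfr. Tenm3, a teneurin of the cell surface, measured 539.6, 152 and 53.3 CPM across the NC libraries and 221, 385 and 103 across the implant libraries, again with NC 3 lowest.

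To set Ngfr beside the Schwann lineage content of each library, its log2 ratio to Sox10 was taken. It was 1.49, -1.15 and 0.99 across the NC libraries and 0.42, 1.63 and -0.92 across the implant libraries. NC 3, which had the least Ngfr, thus had a high ratio, since Sox10 was at its lowest in that library too. NC 2 and implant 3, where myelin was highest, had the lowest ratios. The mean log2 ratio was 0.44 ± 1.40 in NC and 0.38 ± 1.28 with the implant (n = 3 each), a difference of -0.07 (two-sided exact permutation p 1, smallest possible 0.1). With Erbb3, the neuregulin receptor of Schwann cells, in place of Sox10 the difference was 0.51 (exact permutation p 0.7). With S100b it was 1.31 (exact permutation p 0.4), and NC 3 then had the lowest ratio of all, -3.69. The sign and the place of NC 3 therefore depended on the reference gene.

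Ntrk2, which encodes TrkB, the receptor of Bdnf, varied less than Ngfr, though 28.0% of tested genes had a wider range. It measured 73.8, 109 and 72.1 CPM across the NC libraries and 103, 63.5 and 49.1 across the implant libraries. The groups overlapped, with NC 2 and implant 1 highest, and the highest library was 2.22 times the lowest. The mean level was 85.0 ± 20.9 CPM for NC and 71.8 ± 27.9 for the implant group (n = 3 each), and the log2 fold change was -0.24 ± 0.32 (SE), from -1.01 to 0.53 (edgeR adjusted p 1). Its order was not that of its ligand: the 2 libraries with the most Bdnf, NC 1 and implant 2, had 73.8 and 63.5 CPM of Ntrk2. The genes most like it were P3h2, a collagen hydroxylase, and Acta2, the actin of smooth muscle, at 0.13 each, where Ntrk2 lay 0.39 from its own mean. Acta2 measured 148, 223 and 174 CPM across the NC libraries and 236, 167 and 113 across the implant libraries. The 6 markers of pericytes and smooth muscle, Acta2 among them, all had counts in every library and summed to 808 to 1047 CPM in NC and 808 to 1037 with the implant. Their sum was lowest in NC 1 and implant 2, whereas Ntrk2 was lowest in implant 3. Of these markers, Acta2 and Myh11 were lowest in implant 3 too. Cspg4 was lowest in implant 2, Rgs5 and Pdgfrb in NC 3, and Des in NC 1. Des was highest in implant 3, at 268 CPM.

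Ntrk3, which encodes TrkC, the receptor of neurotrophin-3, was low in NC 1 and implant 2, where Bdnf and Ngfr were highest. It measured 5.04, 14.7 and 4.70 CPM across the NC libraries and 13.0, 4.18 and 10.2 across the implant libraries. NC 2, implant 1 and implant 3 were high and the other 3 libraries low, with no overlap between these 2 sets in their counting intervals. Mbp, which encodes a main protein of myelin, had the same 3 highest libraries, and so did 2266 genes, or 16.2%, of all tested. Mbp measured 295, 6100 and 419.7 CPM across the NC libraries and 2526, 266 and 3085 across the implant libraries, a far wider range than that of Ntrk3. The Ntrk3 mean level was 8.14 ± 5.67 CPM for NC and 9.13 ± 4.50 for the implant group (n = 3 each). The log2 fold change was 0.16 ± 0.60 (SE), from -1.30 to 1.63 (edgeR adjusted p 1), and it was -0.07 without NC 1, -0.11 without NC 3 and -0.16 without implant 1. Ankrd28 and Stum were most like it, at 0.11 and 0.12, where Ntrk3 lay 0.69 from its own mean.

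Sort1, the receptor that pairs with Ngfr for the precursors, was the steadiest of the 7. It measured 166, 202 and 224 CPM across the NC libraries and 168, 146 and 185 across the implant libraries, so that the highest library was 1.53 times the lowest, and 57.7% of tested genes had a wider range. The groups overlapped, as NC 1 lay below implant 1 and implant 3. The mean level was 197 ± 28.9 CPM for NC and 166 ± 19.4 for the implant group (n = 3 each), and the log2 fold change was -0.25 ± 0.16 (SE), from -0.65 to 0.16 (edgeR unadjusted p 0.187, adjusted p 1). Its narrow interval leaves out a 2-fold change in either direction. Prex2 and Opa1 were most like it, at 0.04 each, where Sort1 lay 0.20 from its own mean.

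**Figure D2:**
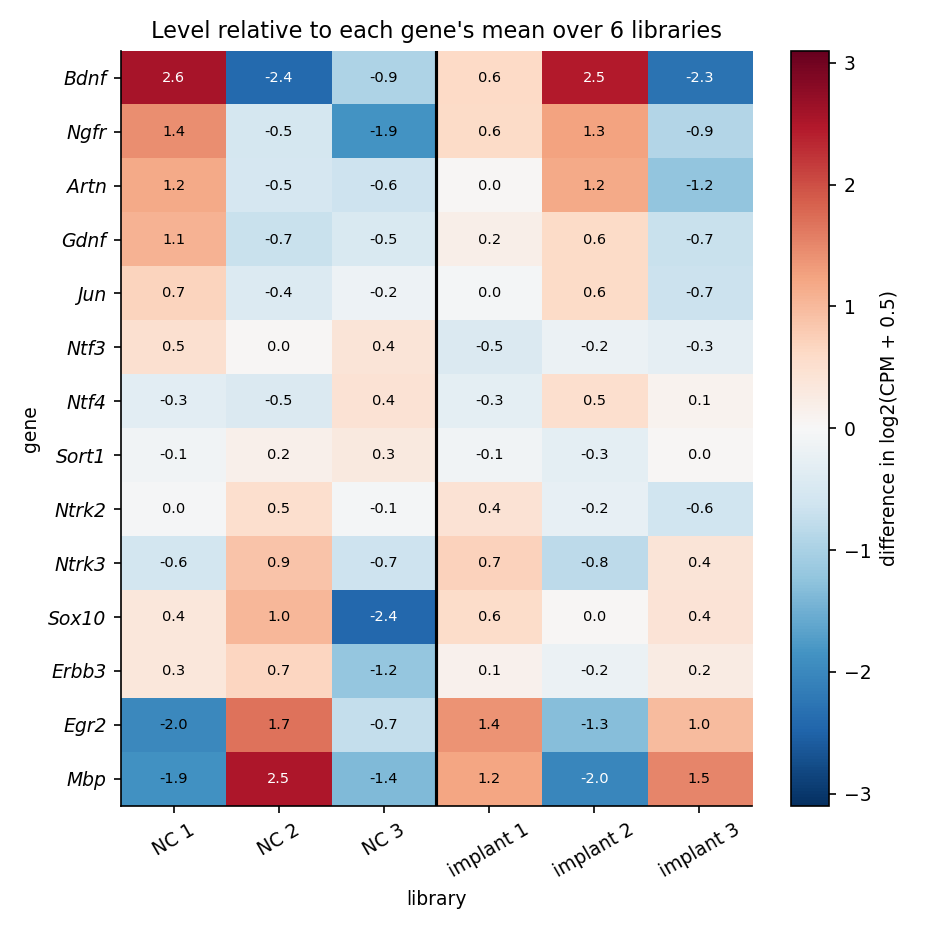
Level of each gene in each library relative to that gene's mean, in log2(CPM + 0.5), red for higher and blue for lower; the black line parts NC from implant. Bdnf and Ngfr are high in NC 1 and implant 2 and Mbp is low there, while Ntrk3 has the sign of Mbp in each library.

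Set side by side, the 7 genes fell into unlike patterns. The 2 widest, Bdnf and Ngfr, shared their 3 highest libraries, as did 1093 genes, or 7.81%, of all tested. By the likeness measure, which counts both order and width, Ngfr was the nearest of the other 6 to Bdnf (1.22), and Ntrk3 was the farthest from it (2.54). Bdnf was not in fixed proportion to Ngfr: its log2 ratio to Ngfr was -4.25, -7.23 and -4.45 across the NC libraries and -5.32, -4.15 and -6.75 across the implant libraries, so it was lowest where Bdnf was lowest. The balance of the 2 ligands moved with Bdnf too: the log2 ratio of Bdnf to Ntf3 ran from -1.57 in NC 2 to 3.53 in implant 2. For these pairs the difference between group means was -0.10 and 1.16 (exact permutation p 1 and 0.7, smallest possible 0.1). Between receptors, the log2 ratio of Ngfr to Ntrk3 was above 6 in NC 1 (6.29) and implant 2 (6.34), 4.16 in implant 1 and 2.85 to 3.09 in the other 3 libraries. The log2 ratio of Ntrk2 to Ntrk3 ran from 2.21 in implant 3 to 3.80 in NC 3. With 7 such ratios compared in all, every exact permutation p adjusted over them was 0.98 or 1.

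**Figure D3:**
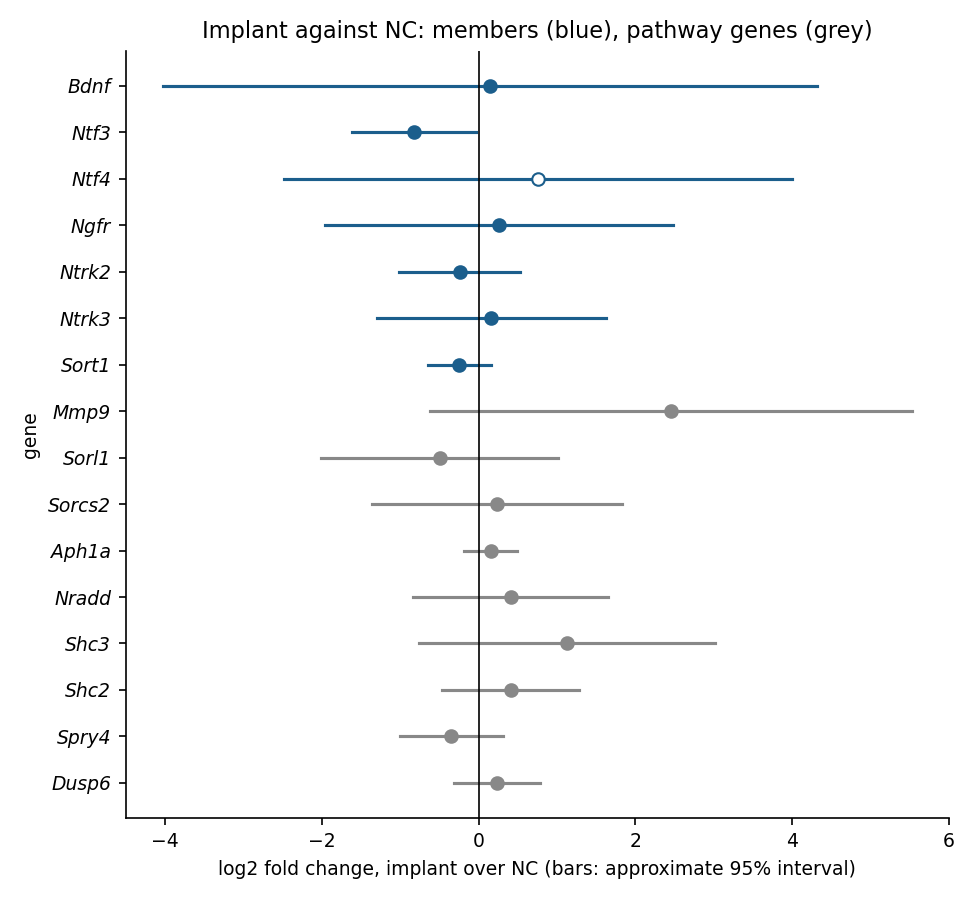
Log2 fold change, implant over NC, with approximate 95% intervals from edgeR, for the 7 genes (blue; open for Ntf4, fitted without the filter) and for the pathway genes taken by rule (grey; Mmp7, with almost no implant counts, is not drawn). Bdnf has the widest interval of the 7, from -4.03 to 4.32, and Sort1 the narrowest, from -0.65 to 0.16.

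The rest of the neurotrophin pathway was described from 73 listed genes, of which 72 were in the table and 68 were tested. Of these, 30 had a positive and 38 a negative log2 fold change, with a median of -0.01, where the median of all genes tested was -0.01 too. The edgeR test called 0 of the 68, with 1 at an unadjusted p under 0.05 (1.72% of all genes tested), and limma-voom called none over all genes. DESeq2 called 1 of the 68, Mmp7, where it called 11 of all 13999 genes tested. In 2 of the 68, Mmp7 and Sh2b1, NC lay wholly above the implant group, a share like that over all genes tested (2.88%), and none had the implant group wholly above. From each list the 2 genes with the smallest unadjusted p are named.

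Enzymes that cut the precursors, and their regulators, numbered 12 tested, 5 positive and 7 negative, with a median of -0.02. Mmp7, matrilysin, which can cut the precursors, had counts of 20, 40 and 15 across the NC libraries and of 0, 0 and 1 across the implant libraries (edgeR unadjusted p 0.000788, adjusted p 1; DESeq2 adjusted p 0.0174). Mmp9, a gelatinase, measured 1.25, 13.6 and 5.93 CPM across the NC libraries and 30.7, 2.93 and 80.4 across the implant libraries (edgeR unadjusted p 0.0986), with wide overlap. Furin, the general convertase, measured 119, 76.9 and 107 CPM across the NC libraries and 103, 117 and 82.5 across the implant libraries, and was named after its values were seen.

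Relatives of sortilin numbered 3 tested, with 2 positive, 1 negative and a median of 0.04. Sorl1 measured 41.5, 19.0 and 107 CPM across the NC libraries and 33.2, 54.4 and 31.1 across the implant libraries. Sorcs2, which pairs with Ngfr, measured 175, 74.8 and 34.1 CPM across the NC libraries and 133, 148 and 52.6 across the implant libraries. It had the library order of Ngfr, with NC 1 and implant 2 highest and NC 3 lowest, over a narrower range.

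Coreceptors and adaptors of Ngfr numbered 15 tested, 8 positive and 7 negative, with a median of 0.07 and all between -0.11 and 0.41. Aph1a, a subunit of the gamma-secretase that cuts Ngfr in the membrane, had a log2 fold change of 0.16 ± 0.14 (SE), and Nradd, a protein related to Ngfr, had 0.41 ± 0.51. Adaptors and kinases below the Trk receptors numbered 25 tested, 10 positive and 15 negative, with a median of -0.01. The adaptors Shc3 (1.13 ± 0.78) and Shc2 (0.41 ± 0.36) had the smallest unadjusted p there, 0.194 and 0.301 in edgeR. Genes known to answer neurotrophins numbered 13 tested, 5 positive and 8 negative, with a median of -0.05, all between -0.35 and 0.32. Among them were Spry4 (-0.35 ± 0.27) and Dusp6 (0.23 ± 0.22), both inhibitors of the ERK pathway. No list of the pathway had a gene called by edgeR.

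**Figure D4:**
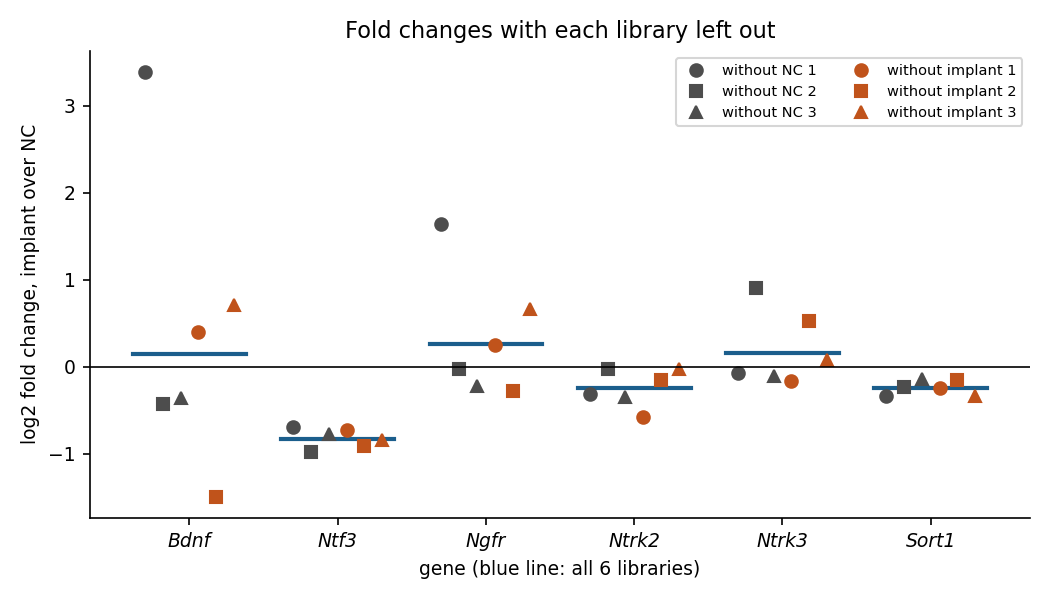
Log2 fold change, implant over NC, of the 6 tested genes with each library left out in turn (points) and with all 6 libraries (blue line). The points of Bdnf run from -1.49 to 3.39 and those of Ntf3 from -0.98 to -0.69.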

How the data were processed

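Polyadenylated RNA of 6 sciatic nerve libraries was prepared with a NEBNext Ultra RNA kit, per the labels' protocols, and this kit does not mark the strand. The values the authors deposited are estimated counts per gene, and their totals differ between libraries as those of raw counts do. HISAT2, Bowtie2 2.2.8, DESeq2 and StringTie 1.3.1 appear in the submitters' processing notes without their roles. Which tool counted, on which genome build and annotation, is not given in the sources used here. Control columns are named Con and treated ones Gel_HA-Mg. They were matched to the NC and GDNF-Gel/HA-Mg groups by these names and their numbers.

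Counts were rounded, filtered with filterByExpr, scaled by TMM and compared with the two-sided quasi-likelihood test of edgeR 4.0.16 in R 4.3.3, with no term but the group. A call needs an adjusted p under 0.05 (Benjamini-Hochberg, all tested genes). Standard errors come from the log2 fold change and its F statistic, and intervals from these. Ratios and likeness used log2(CPM + 0.5). Likeness took tested genes with a mean of at least 2 on that scale and a symbol that is not provisional, and the 2 nearest are named. From each pathway list the 2 genes with the smallest unadjusted p are named. The genes described and all lists were chosen with earlier results of these data known. Some genes of the lists are not reported here. The edgeR fit was tested on simulated data. Of 15 library pairs, none agreed within sampling noise by chi-square. Alternatives were RLE and upper-quartile scaling, haemoglobin genes left out, DESeq2 1.42.0, limma-voom (limma 3.58.1), other filters, a replicate block, and each library left out. Figures were drawn with matplotlib 3.10.9.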

Additional observations from a re-analysis of the deposited data

How the results depend on the processing

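The count of genes called was 0 under RLE and upper-quartile scaling, without haemoglobin genes, in limma-voom, under both other filters, with the replicate block and without each library in turn, and 11 in DESeq2. Of the 7 genes described, none was called under any of these, and Ntf4 has no value where it failed the filter. Leaving out each library moved the log2 fold change of Bdnf between -1.49 and 3.39, Ngfr between -0.28 and 1.64, Ntrk3 between -0.16 and 0.90, Ntrk2 between -0.58 and -0.03, Ntf3 between -0.98 and -0.69 and Sort1 between -0.34 and -0.15. For Sorl1 the range was -0.91 to 0.38 and for Sorcs2 -0.18 to 1.05. For the log2 ratio of Ngfr to Sox10 it was -0.86 to 0.58. With Erbb3 or S100b as the reference, the difference in that ratio was 0.51 or 1.31 in place of -0.07. The cause of these changes of sign was not tested.

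The labels do not say whether the replicate numbers pair the libraries. The deviations of same-numbered libraries from their group means correlated at 0.07, -0.74 and 0.05 over genes. By this measure NC 1 was closest to implant 2 (0.55). Deviations within so small a group depend on each other, so these values cannot decide whether the libraries are paired. With the replicate number as a block, 0 genes were called and the log2 fold change of Bdnf was -0.28. Depth limits Ntf4 and, with 4 and 5 counts in 2 libraries, Bdnf. Counts per gene do not separate the receptor forms of Ntrk2 and Ntrk3, and reads of antisense or overlapping genes cannot be told apart.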

Other observations

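Other genes of the pathway lists shared their highest libraries with Ngfr or with Ntrk3, and those given here were chosen after their values were seen. Pcsk1, a convertase of regulated secretion, measured 158, 12.9 and 9.62 CPM across the NC libraries and 67.8, 189.6 and 15.98 across the implant libraries. Gap43, a growth-associated protein of axons and Schwann cells, measured 84.9, 8.84 and 17.1 CPM across the NC libraries and 25.8, 73.2 and 11.4 across the implant libraries. For both, NC 1 and implant 2 were the highest libraries, as they were for 1378 genes, or 9.84%, of all tested. Sorcs1, a relative of sortilin, measured 4.62, 153 and 7.37 CPM across the NC libraries and 77.2, 2.83 and 90.2 across the implant libraries. Lingo1, a coreceptor of Ngfr, measured 2.86, 15.8 and 1.01 CPM across the NC libraries and 9.54, 1.58 and 7.61 across the implant libraries. These last 2 shared their 3 highest libraries, NC 2, implant 1 and implant 3, with Ntrk3 and Mbp. The relatives of sortilin thus differed in pattern, with Sorcs2 highest in NC 1 (175 CPM) and Sorcs1 in NC 2. None of these genes was called by edgeR (adjusted p 1 for each).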
